A study of Mus musculus with 4 samples.

Results

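The nuclear genes of oxidative phosphorylation were read across 4 mouse oral cancer cell lines. Members were the protein-coding rows of the expression table whose symbol began with Ndufa, Ndufb, Ndufc, Ndufs, Ndufv, Uqcr, Cox4i, Cox5, Cox6, Cox7, Cox8 or Atp5, together with Sdha, Sdhb, Sdhc, Sdhd, Cyc1 and Cycs. The rule read names and not levels, though it was set with earlier results of these data known. This gave 94 rows among 34685 gene identifiers. Of the 94 rows, 87 reached 1 FPKM (fragment numbers adjusted for how long the transcript is and how deep the library) in at least 1 line and were compared. The prefix Ndufa also brought in 8 complex I assembly factors named Ndufaf, and Ndufa4, known since as a subunit of cytochrome c oxidase, was placed in complex IV. Cox4i1 and Cox8c were not analysed here.

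AOC3 and AOC11 were cultured from oral tumors that the carcinogen 7,12-dimethylbenzanthracene (DMBA), painted on the cheek mucosa, had raised in male C57BL/6 mice, and AOC3-LN and AOC11-LN from tumors that had spread to lymph nodes. All 4 lines had been passed under the skin of C57BL/6 mice and depleted of fibroblasts before culture, and the labels name no treatment of the cells. AOC3 and AOC3-LN are called the AOC3 lines below, and AOC11 and AOC11-LN the AOC11 lines. Each line was 1 library, so a comparison of 2 lines had no replicate, and the 2 lines of a mouse were related cultures and not independent animals. In these bulk libraries, fewer cells of a type and less RNA per cell cannot be told apart.

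Oxidative phosphorylation is the passage of electrons from NADH and succinate to oxygen in the inner mitochondrial membrane and the use of the resulting proton gradient to make ATP. Complex I takes electrons from NADH and complex II from succinate, complex III passes them to cytochrome c, complex IV passes them to oxygen, and complex V is the ATP synthase. All complexes but complex II combine subunits from nuclear genes with a few made from mitochondrial DNA. Several complex IV subunits have isoforms used in skeletal and heart muscle, lung or testis. Tumor cells of epithelial origin commonly keep these complexes while running a high rate of glycolysis.

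The libraries held an estimated 28210000 to 33840000 fragments each, read from the steps between low FPKM values, of which 63.4% to 67.0% lay within 0.1 of a whole fragment. At this depth the members were well covered, with a median of 3514 estimated fragments per member and line and a lowest value of 20. These member estimates used the full length of the principal transcript, whereas the depth estimate took 156 to 188 bases off each length. That tends to make them too high, most of all for short transcripts. All 11 epithelial markers passed the filter, with summed levels of 3744 to 3901 FPKM. Markers of other cell types were mostly scarce: 0 of 7 endothelial markers passed, and their summed level was 0.339 to 0.513 FPKM. Of the fibroblast markers, 1 of 10 passed, with sums of 0.305 to 4.76 FPKM. Of the leukocyte markers, 3 of 13 passed, with sums of 10.1 to 29.6 FPKM. Csf1r was at 0.995, 0.435, 20.78 and 6.01 FPKM in AOC3, AOC3-LN, AOC11 and AOC11-LN. In the same order Cd68 was at 12.97, 8.79, 6.15 and 4.45 FPKM, and Ly6g at 0.451, 0.588, 2.47 and 1.33 FPKM. Adgre1, Cd8a, Cd4 and Cd3e, among those that did not pass, were at or near 0 in every line. Of 11 skeletal muscle markers, 1 passed, with sums of 3.58 to 12.5 FPKM.

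In every line complexes III, IV and V had higher median levels than complexes I and II. The 36 complex I members had medians of 104 and 99.99 FPKM in the AOC3 lines (primary first) and of 92.95 and 111 FPKM in the AOC11 lines. The 4 complex II members had medians of 88.1 to 105 FPKM, and the 9 complex III members had medians of 162 to 232 FPKM. Complex IV medians were 194 to 293 FPKM over 12 members, and complex V medians were 233 to 275 FPKM over 17 members. The 8 assembly factors, which help to build complex I but do not stay in it, stood lowest with medians of 13.1 to 18.8 FPKM. FPKM is a level per transcript length, so these levels can be set side by side between genes. Together the 87 members made up 2.07% and 2.15% of all FPKM in AOC3 and AOC3-LN, and 1.97% and 2.12% in AOC11 and AOC11-LN.

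**Figure D1:**
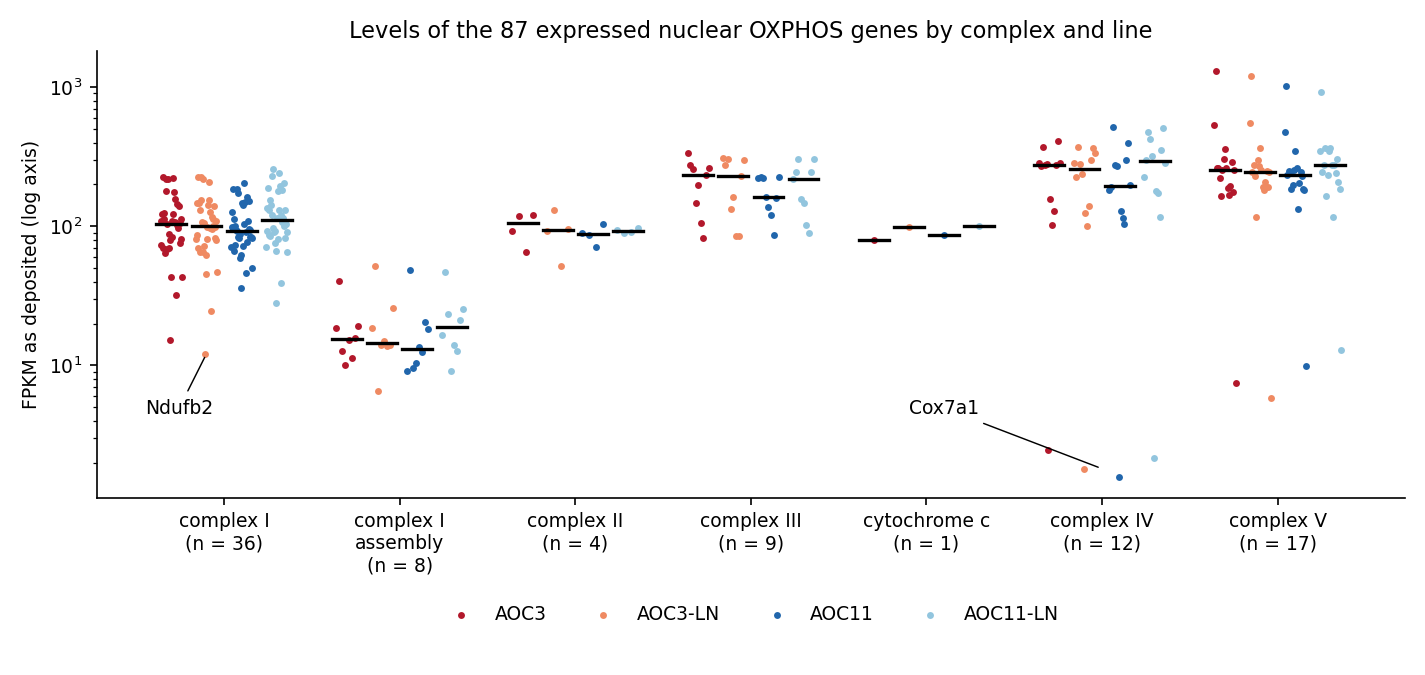
Level of each of the 87 expressed nuclear oxidative phosphorylation genes (FPKM as deposited, log axis) by complex and by line, with 1 point per gene and a black bar at the median of the line. Complex I medians lay between 92.95 and 111 FPKM in the 4 lines, the assembly factors lay near the bottom, Ndufb2 was the lowest complex I gene in both AOC3 lines, and Cox7a1 was the lowest member in every line.

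Levels varied widely within each complex. Atp5b, the catalytic beta subunit of the ATP synthase, was the highest member at 1304, 1194, 1027 and 921 FPKM in AOC3, AOC3-LN, AOC11 and AOC11-LN, and Atp5a1, the alpha subunit, was the next on average at 536, 552, 476 and 346 FPKM, with other members above it in both AOC11 lines. Ndufb8, an accessory subunit, was the highest of complex I on average at 222, 209, 205 and 242 FPKM. Ndufs1, the largest iron-sulfur subunit of its NADH-oxidizing arm, was the lowest on average at 32.1, 24.6, 46.3 and 39.2 FPKM. In complex III the lowest was Uqcrfs1, the Rieske iron-sulfur protein, at 82.4, 85.2, 86.7 and 89.1 FPKM, a level that hardly moved between lines. Uqcrq, a small subunit of the same complex, was its highest on average at 262, 301, 226 and 307 FPKM, close to Uqcr11 and Cyc1, and was the highest in AOC11-LN alone. Ndufaf2 was the highest assembly factor at 40.5, 51.5, 48.9 and 46.6 FPKM. Ndufaf4 was the lowest on average at 10.2, 14.1, 10.4 and 9.14 FPKM, although Ndufaf3 was lower in AOC3-LN and in AOC11.

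The isoforms of complex IV were those of non-muscle tissue. Cox6a1 was at 374, 372, 513 and 478 FPKM, while its muscle counterpart Cox6a2 did not exceed 0.533 FPKM in any line. Cox6b1 stood at 276, 279, 276 and 423 FPKM against at most 0.187 FPKM for the testis isoform Cox6b2. Cox8a stood at 411, 366, 398 and 510.3 FPKM, and Cox8b was listed at 0 in 3 lines. Cox7a2 was at 157, 124, 128 and 178 FPKM, and the muscle isoform Cox7a1 alone of these passed the filter, at 2.45, 1.81, 1.57 and 2.16 FPKM. Cox4i2, the lung isoform of subunit 4, was listed at 0 in all 4 lines. Ndufa4 was at 285, 334, 199 and 287 FPKM and its hypoxia-linked relative Ndufa4l2 did not exceed 0.139 FPKM. The 7 rows that did not pass were Cox4i2, Cox6a2, Cox6b2, Cox7b2, Cox8b, Ndufa4l2 and a second annotated row for Atp5o.

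The c ring of the ATP synthase, the rotor that protons turn, is encoded by 3 genes whose mature proteins are the same. Of their summed FPKM, Atp5g3 made up 39.2% and 39.0% in AOC3 and AOC3-LN, and 43.8% and 38.6% in AOC11 and AOC11-LN. The share of Atp5g1 was 27.8%, 32.0%, 24.6% and 24.8% in the same order. That of Atp5g2 was 33.0%, 29.0%, 31.6% and 36.6%. No gene of the 3 made up most of that sum in any line, and the protein of the ring was not measured. Reads of such close relatives, and of the processed pseudogenes that many subunit genes have, could be shared between rows in the counting, which makes the split uncertain.

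The first comparison set the AOC3 lines against the AOC11 lines, as the means of log2(FPKM + 1) after quantile normalization, a scale on which changes of low genes are understated. Across the members the 2 pairs of lines were close. The median difference was 0.05 on the log2 scale, beside 0.01 over all 14165 entries tested, and 46 of 87 members lay within 0.25 of 0. In all, 48 members were higher and 39 lower in the AOC3 lines. Only Ndufb2 differed by more than 2-fold, which is 1.15% of the members, beside 11.1% of all entries (1573 of 14165). At 1.5-fold, 5 members were called, or 5.75%, beside 26.9% of all entries. Genes at high levels vary less on this scale, and among entries with a mean of 50 FPKM or more 7.97% passed 2-fold, while 0 of the 74 members at that level did.

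Ndufb2, an accessory subunit of the membrane arm of complex I, was at 15.2 FPKM in AOC3 and 12.2 FPKM in AOC3-LN, against 59.1 FPKM in AOC11 and 75.2 FPKM in AOC11-LN. Both AOC3 lines were far below both AOC11 lines, and the mean level was 4.92-fold higher in the AOC11 lines. The log2 difference was -2.14 with an SE of 0.21, and limma across all entries, with the 2 lines of a mouse in place of replicates, gave a Benjamini-Hochberg adjusted p of 0.0552. It was -1.86 between the primary lines and -2.42 between the lymph node lines. The other 35 complex I members lay between -0.52 and 0.58, so Ndufb2 was lower relative to its own complex as well: it ranked 36 of 36 in both AOC3 lines, 33 in AOC11 and 31 in AOC11-LN. As a share of the complex I median it was 14.5%, 12.2%, 63.6% and 67.8%. Among all entries tested, 282 had a larger difference in either direction.

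Ndufb2 (ENSMUSG00000002416.13) lies on the plus strand at chr6:39592574-39603382 (mm10, GENCODE M21), with 6 annotated transcripts whose lengths run up to 4371 bases, the principal coding one being 455 bases. The deposited level is 1 value per gene, so a change in the mix of transcripts and a change in the number of molecules were not told apart. Its last bases overlap the 3′ end of Braf on the other strand, which was at 5.65, 7.04, 6.65 and 6.23 FPKM, and its first part overlaps Gm42420, which did not exceed 0.114 FPKM. The nearest gene upstream, Adck2, was at 4.83, 4.92, 6.13 and 7.27 FPKM, and Mkrn1, farther upstream, at 30.2, 34.0, 28.2 and 34.1 FPKM. None of these neighbours showed a difference like that of Ndufb2, the log2 values being 0.04 for Braf, -0.32 for Adck2 and 0.10 for Mkrn1.

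**Figure D2:**
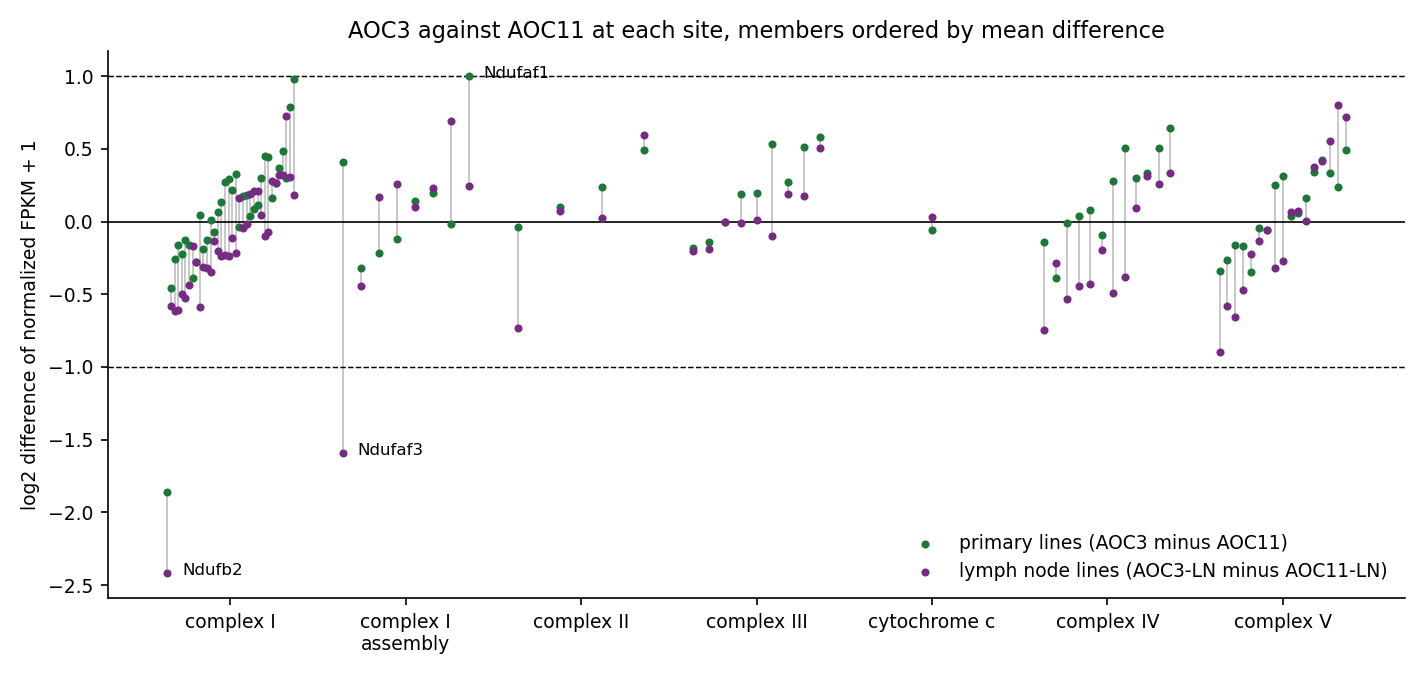
Log2 difference of normalized FPKM + 1 between AOC3 and AOC11 for each of the 87 members, by complex, with the primary lines in green and the lymph node lines in purple, joined by a grey line, and dashed lines at 2-fold. Ndufb2 lay at -1.86 and -2.42, Ndufaf3 crossed from 0.41 to -1.59, and the other members apart from Ndufaf1 stayed within 2-fold at both sites.

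Among the remaining members the differences were small and ran both ways. The highest were Ndufaf1, an assembly factor, at 18.7 and 18.5 FPKM in the AOC3 lines against 9.16 and 16.5 FPKM in the AOC11 lines (log2 difference 0.63), and Atp5j, a peripheral stalk subunit of the ATP synthase, at 188 and 190.4 FPKM against 134 and 117 FPKM (0.61). Ndufa6, an accessory complex I subunit, came next at 178 and 155 FPKM against 93.6 and 141 FPKM (0.58). The AOC3 values of Atp5j lay well above the AOC11 values, whereas for Ndufaf1 and Ndufa6 most of the difference came from the AOC11 primary line. At the other end, after Ndufb2, were Atp5s, at 7.55 and 5.82 FPKM against 9.87 and 12.97 FPKM (-0.62), and Ndufaf3 (-0.59). Atp5s was counted in complex V by its symbol but is not a subunit of it. Sdhb, the iron-sulfur subunit of complex II, was at 118 and 130.4 FPKM against 86.4 and 89.4 FPKM (0.54), while its partner Sdhc, a membrane anchor, was at 65.3 and 51.7 FPKM against 70.6 and 91.3 FPKM (-0.38). Cyc1, the cytochrome c1 of complex III, was at 336 and 311 FPKM against 224 and 217 FPKM (0.54). Sdha, the flavoprotein of complex II, gave 92.3 and 93.1 FPKM against 89.8 and 93.4 FPKM (0.09), and Sdhd gave 121 and 94.96 FPKM against 105 and 97.8 FPKM (0.13). Cycs, which encodes cytochrome c, did not separate the mice, at 79.8, 98.6, 87.3 and 100.5 FPKM.

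In 28 members (32.2%) both AOC3 lines stood above both AOC11 lines, beside 26.3% of all entries, and in 21 (24.1%) both stood below, beside 26.7%. The members were thus near the background in both directions. In limma, 0 of 87 members passed an adjusted p of 0.05, beside 0.205% of all entries (29 of 14165). Without adjustment 10 members (11.5%) had a p under 0.05, beside 18.7% of all entries. The 10 were Ndufb2, Ndufb4, Ndufb9, Ndufv2, Sdhb, Cyc1, Cox5a, Atp5j, Atp5o and Atp5s, and the highest adjusted p among them was 0.266. Ndufb2 passed the adjusted threshold in 4 of the other settings, given in the closing section, and 0 members passed it when any 1 line was left out.

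No complex as a whole stood apart between the mice. The median differences were 0.04 for complex I, 0.10 for its assembly factors, 0.11 for complex II, 0.10 for complex III, -0.13 for complex IV and 0.02 for complex V. The 5 subunits of the catalytic head of the ATP synthase had a median of 0.08 and the 4 of its peripheral stalk 0.18. Taken by site, the median over members was 0.11 between the primary lines and -0.07 between the lymph node lines. At the primary site 2 members passed 2-fold, Ndufb2 and, by a small margin, Ndufaf1, beside 11.9% of all entries. Between the lymph node lines 2 passed as well, Ndufb2 and Ndufaf3 (-1.59), beside 16.3%.

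**Figure D3:**
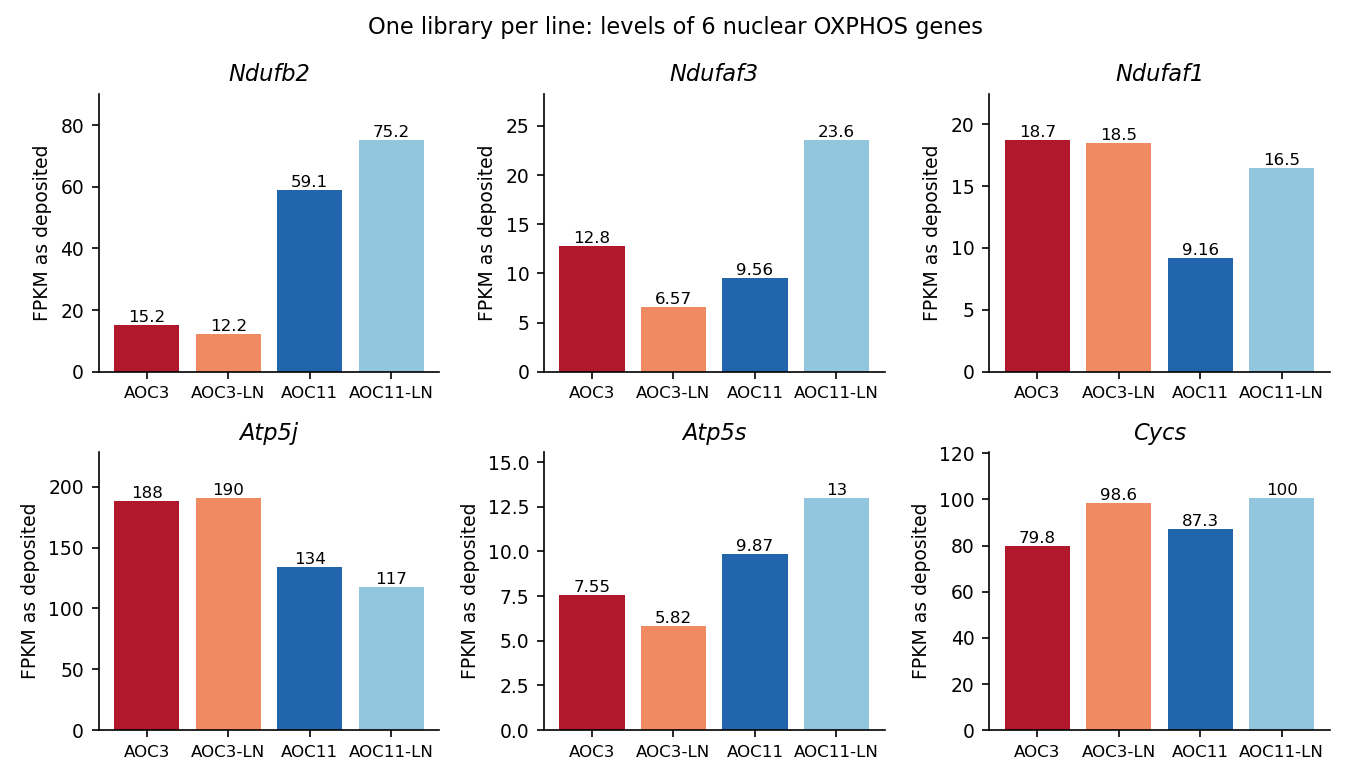
Deposited FPKM of 6 nuclear oxidative phosphorylation genes in the 4 lines, 1 library per bar, each panel with its own axis from 0. Ndufb2 was at 15.2 and 12.2 FPKM in the AOC3 lines against 59.1 and 75.2 FPKM in the AOC11 lines, Ndufaf3 was highest in AOC11-LN, and Cycs was similar in all 4.

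The other comparisons set each lymph node line against the primary line of the same mouse, 1 library on each side. AOC3-LN hardly differed from AOC3. The median over members was -0.01, beside 0.02 over all entries, and 66 of 87 members lay within 0.25 of 0. None of the members passed 2-fold, beside 5.53% of all entries, and at 1.5-fold 1 did, beside 13.8%. The sign of so small a median depended on scaling, being 0.07 after rescaling the values to a common sum.

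The members farthest from 0 between AOC3-LN and AOC3 were mostly assembly factors. Ndufaf4 (0.53), Ndufaf8 (0.44) and Ndufaf6 (0.36) were higher in AOC3-LN, Ndufaf8 being at 19.3 FPKM in AOC3 and 25.9 FPKM in AOC3-LN, and Ndufaf6 at 11.2 and 13.9 FPKM. Ndufaf3 was lower, at 12.8 FPKM in AOC3 and 6.57 FPKM in AOC3-LN (-0.79). Atp5f1, the b subunit of the peripheral stalk, was at 164 and 117 FPKM (-0.50). Ndufb3, an accessory subunit, was at 80.0 and 61.9 FPKM (-0.41). Of the 7 core subunits of complex I made from nuclear genes, 6 were below 0 and Ndufs8 above it, with a median of -0.10. Of all entries 53.0% were above 0, and this count is given on the main scaling only.

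AOC11-LN stood slightly above AOC11 for most members. The median was 0.16, beside -0.02 over all entries, and 67 of 87 members (77.0%) were above 0, beside 47.7% of all entries. Over the scalings tried the number above 0 ran from 55 to 72. Only Ndufaf3 passed 2-fold, or 1.15% of members, beside 8.11% of all entries, and 5 members passed 1.5-fold, or 5.75%, beside 24.6%. Ndufaf3 was at 9.56 FPKM in AOC11 and 23.6 FPKM in AOC11-LN, a log2 difference of 1.22. Its direction was opposite in the other mouse, and its span overlaps that of Impdh2. Ndufaf1 followed, at 9.16 and 16.5 FPKM (0.78), and then Cox5b, a peripheral complex IV subunit, at 190.1 and 298 FPKM (0.61). Lower in AOC11-LN were Atp5a1 at 476 and 346 FPKM (-0.44), Ndufb5 at 146 and 115 FPKM (-0.39) and Ndufb4 at 36.3 and 27.95 FPKM (-0.37). Among entries with a mean of 50 FPKM or more, 3.49% passed 2-fold in the AOC3 mouse and 6.09% in the AOC11 mouse, and 0 of the 74 members at that level did in either.

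The small excess in AOC11-LN was uneven between complexes. In complex IV, 11 of 12 members were above 0 with a median of 0.32, and in complex I 31 of 36 with a median of 0.19. In complex III it was 6 of 9 (0.05) and in complex V 10 of 17 (0.03), the 4 peripheral stalk genes all lying below 0 with a median of -0.11. Transcript length moved with it. Over the 87 members Spearman's rho between this difference and the length of the principal transcript was -0.30, and over 11380 protein-coding genes it was -0.25. The 28 members of up to 600 bases had a median of 0.26, beside 0.11 for 254 other protein-coding genes of that length, and the 7 members over 2000 bases had -0.15, beside -0.10 for 7665 others. The part of length in the result was not tested.

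The subunits made from mitochondrial DNA did not share these values. Over the 13 genes the median in AOC11-LN against AOC11 was -1.20, with 9 of 13 past 2-fold, all lower in AOC11-LN, and 13 of 13 below 0. Within complex I, mt-Nd1 was at 2308 FPKM in AOC11 and 829 FPKM in AOC11-LN, while the 36 nuclear genes had a median difference of 0.19. In complex IV, mt-Co1 was at 5664 and 3537 FPKM (-0.86) and mt-Co3 at 1705 and 1663 FPKM (-0.13), beside 0.32 for the nuclear genes. In complex V, mt-Atp6 was at 2062 and 1102 FPKM (-1.03). The transcripts of mt-Atp8 (-2.66) and mt-Nd4l (-1.83) overlap those of their neighbours mt-Atp6 and mt-Nd4. This makes the levels of both genes of each pair uncertain. As a share of all FPKM the 13 genes were at 4.60% and 4.30% in the AOC3 lines, at 4.14% in AOC11 and at 1.82% in AOC11-LN, so that AOC11-LN stood apart from the other lines. Between AOC3-LN and AOC3 their median was -0.03, with 4 genes above 0 and 7 below. Quantile normalization gives genes of equal rank equal values, so mt-Co1, at 6437 FPKM in AOC3 and 5669 FPKM in AOC3-LN, came out at 0. Some signs in that count were the reverse of those in deposited FPKM. Counted above 0 but lower in AOC3-LN as deposited were mt-Co2 (3062 and 3007 FPKM), mt-Atp8 (10081 and 8353 FPKM) and mt-Atp6 (3371 and 2939 FPKM). Counted below 0 but higher as deposited was mt-Co3 (1799 and 1833 FPKM). The deposited FPKM of the 13 genes summed to 32333 in AOC3 and 28591 in AOC3-LN. Their differences are given on the main scaling only. Because of AOC11-LN, the median of 0.42 for the AOC3 lines against the AOC11 lines was not shared by the sites. Most of the 13 genes were below 0 between the primary lines, and all were above 0 between the lymph node lines. In this order mt-Nd1, the lowest of them between the primary lines, was at -0.45 and 1.15. Above 0 at both sites were mt-Atp6 (0.57 and 1.62) and mt-Co3 (0.09 and 0.19).

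**Figure D4:**
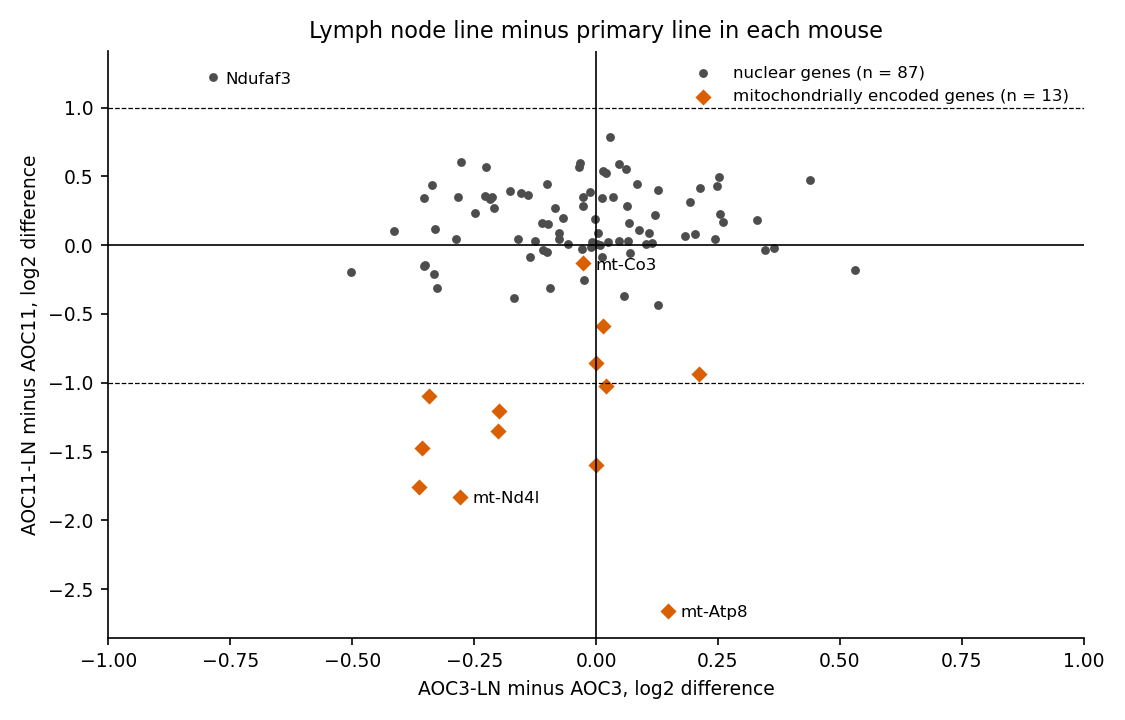
Log2 difference of the lymph node line from the primary line, AOC3 mouse on the horizontal axis and AOC11 mouse on the vertical axis, for 87 nuclear genes (grey points) and 13 mitochondrially encoded genes (orange diamonds), with dashed lines at 2-fold in the AOC11 mouse. The nuclear genes gathered around 0 with most points above it on the vertical axis, Ndufaf3 at -0.79 and 1.22 being the exception, whereas the mitochondrially encoded genes lay between -0.13 and -2.66 on that axis.

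Where a member lay in the genome went along with its small differences. For each member the median difference of the other protein-coding genes on its chromosome was taken, from 286 to 939 genes. Over the 87 members Pearson's r between the member and its chromosome was 0.50 and Spearman's rho 0.54 for the AOC3 lines against the AOC11 lines. For AOC3-LN against AOC3 they were 0.70 and 0.56, and for AOC11-LN against AOC11 both were 0.37. Members of 1 chromosome share that chromosome's median, so these are descriptions and the points are not independent. The sign of a member matched that of its chromosome in 60, 57 and 51 of 87 members.

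The clearest instance was AOC3-LN against AOC3. On chromosomes 1, 3, 9 and 15 the other genes had medians of -0.19 to -0.16, and all 20 members there were lower in AOC3-LN, with a median of -0.28, or 19 of 20 when the values were scaled to a common median or sum. Of the 2304 other genes there 75.3% were lower. The 20 members included Atp5f1, Ndufb3, Ndufaf3, Sdhc (-0.35), Sdhd (-0.35), Uqcrc1 (-0.29) and Cyc1 (-0.11), which belong to different complexes. On the 14 chromosomes where the other genes had medians between -0.1 and 0.1, 36 of 61 members were higher and 25 lower. This limit of 0.1 was chosen after the values were seen. Between the mice, 19 of 21 members were higher in the AOC3 lines on the 5 chromosomes (4, 10, 15, 16 and 18) whose other genes had medians above 0.1. There were 19 of 27 lower on the 6 (1, 3, 5, 6, 7 and 19) whose other genes had medians below -0.1. Chromosome 16 held Atp5j, Atp5o (0.42), the oligomycin sensitivity subunit of the peripheral stalk, and Ndufb4 (0.51), beside 0.39 for its 346 other genes. Ndufb2 on chromosome 6, where the other genes had a median of -0.29, lay far below that median at -2.14. In AOC11-LN against AOC11 the signs did not follow the chromosomes in this way, since on the 9 chromosomes whose other genes had medians below -0.1, 19 of 32 members were above 0. On the 5 with medians above 0.1, 22 of 26 were. For this comparison and the one between the mice, the shares of the other genes by sign are not given beside these counts. After the chromosome's median was subtracted, the members had a median of 0.16. What set the chromosome medians apart was not tested.

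**Figure D5:**
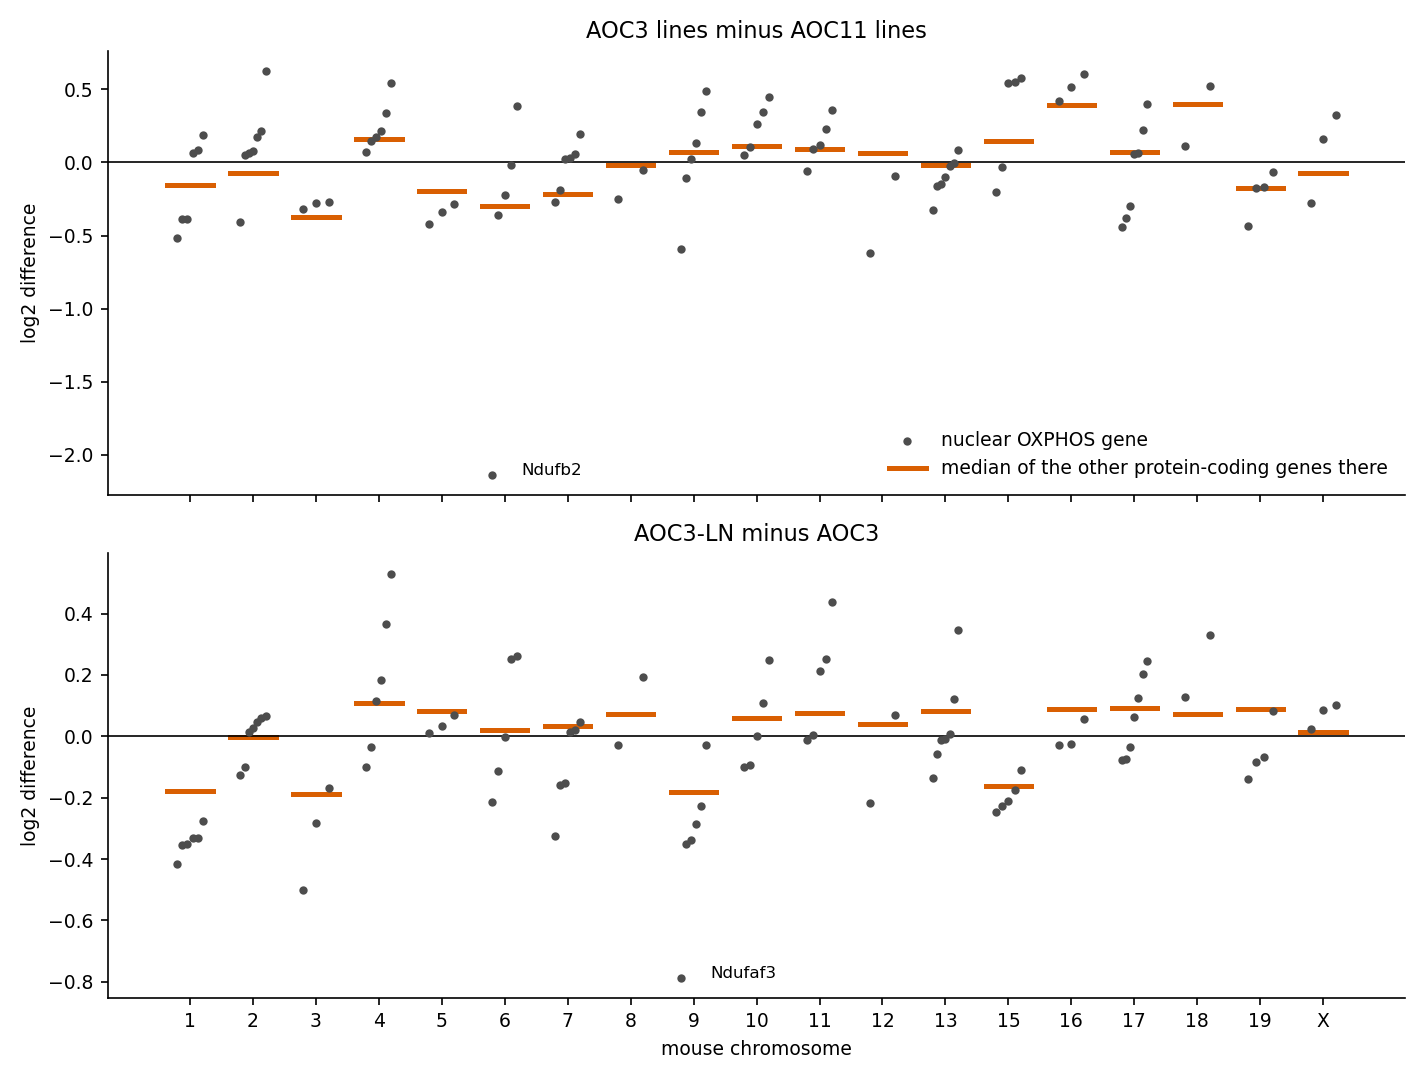
Log2 difference of each member (grey points) by mouse chromosome, with an orange bar at the median of the other protein-coding genes of that chromosome, for the AOC3 lines minus the AOC11 lines (top) and AOC3-LN minus AOC3 (bottom). In the lower panel all 20 members on chromosomes 1, 3, 9 and 15 lay below 0 where the bars lay at -0.19 to -0.16 (19 of 20 with the values scaled to a common median or sum), and in the upper panel Ndufb2 lay far below the other members of chromosome 6.

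The promoters of the members that passed 2-fold in any comparison, and of Cycs as a member that did not separate the mice, are shown as the 250 bases before and 50 bases after the start given by RefSeq (GRCm38.p6). Capitals mark the searched letters that were found, those of the nuclear respiratory factor NRF1, a transcription factor of many respiratory chain genes, in Cycs and those of ETS factors in Ndufaf1. Ndufb2 (chr6:39592315-39592614, plus strand) and Ndufaf3 (chr9:108567387-108567686, minus strand) held none of the letters searched, Ndufaf1 (chr2:119662785-119663084, minus strand) held those of ETS factors, and Cycs (chr6:50566520-50566819, minus strand) held those of NRF1.
Ndufb2: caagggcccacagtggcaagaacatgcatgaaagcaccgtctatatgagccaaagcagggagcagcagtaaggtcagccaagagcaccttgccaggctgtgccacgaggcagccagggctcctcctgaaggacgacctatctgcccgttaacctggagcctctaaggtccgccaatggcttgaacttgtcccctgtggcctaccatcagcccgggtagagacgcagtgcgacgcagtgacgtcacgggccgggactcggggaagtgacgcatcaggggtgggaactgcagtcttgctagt
Ndufaf3: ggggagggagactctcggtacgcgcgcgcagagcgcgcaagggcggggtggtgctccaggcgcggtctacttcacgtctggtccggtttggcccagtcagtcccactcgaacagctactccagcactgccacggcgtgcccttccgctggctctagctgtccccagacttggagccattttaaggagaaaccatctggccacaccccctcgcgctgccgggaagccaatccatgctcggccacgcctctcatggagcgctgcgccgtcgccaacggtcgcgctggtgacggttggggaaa
Ndufaf1: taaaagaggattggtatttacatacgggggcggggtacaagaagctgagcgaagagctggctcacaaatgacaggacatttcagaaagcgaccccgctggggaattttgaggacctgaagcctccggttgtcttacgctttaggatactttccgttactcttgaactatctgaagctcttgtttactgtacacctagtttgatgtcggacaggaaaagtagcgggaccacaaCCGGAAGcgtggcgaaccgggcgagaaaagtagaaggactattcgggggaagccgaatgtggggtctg
Cycs: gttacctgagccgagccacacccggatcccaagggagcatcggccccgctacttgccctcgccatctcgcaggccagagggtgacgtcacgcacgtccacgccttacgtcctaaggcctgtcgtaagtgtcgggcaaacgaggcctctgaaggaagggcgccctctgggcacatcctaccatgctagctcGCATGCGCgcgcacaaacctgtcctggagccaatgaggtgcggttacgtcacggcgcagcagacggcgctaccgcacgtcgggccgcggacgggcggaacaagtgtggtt

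Searched on both strands were GCATGCGC for NRF1, CCGGAAG for ETS factors such as GABP, and AAGATGGCG for YY1, none of which contains another. A promoter was found for 74 of the 87 members, the others including Atp5a1, Cox6c, Cyc1, Sdhc and Uqcrb. The NRF1 letters were in 13 of the 74 (17.6%), beside 3.05% of 27025 genes with a promoter and 7.60% of the 1592 genes with a mean of 50 FPKM or more, members included. Those of YY1 were in 8 (10.8%), beside 1.64% and 4.27%. The ETS letters were in 18 (24.3%), beside 9.93% of all genes and 26.3% of the highly expressed ones. These are matches of letters and not measured binding.

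Transcription factors known to act on respiratory chain genes were read as well. Nrf1 was at 33.7, 38.8, 33.9 and 31.6 FPKM in AOC3, AOC3-LN, AOC11 and AOC11-LN. Gabpa, an ETS factor, was at 11.9, 11.7, 12.1 and 11.4 FPKM, and Yy1 at 37.6, 34.8, 37.5 and 40.1 FPKM. Tfam, which packages mitochondrial DNA and helps to start its transcription, was at 39.9, 38.1, 39.4 and 36.98 FPKM. Of 13 such regulators 12 passed the filter, and 1 passed 2-fold, Ppargc1b in AOC3-LN against AOC3, at 3.15 FPKM in AOC3 and 0.29 FPKM in AOC3-LN (-1.60), beside 5.53% of all entries in that comparison. Ppargc1a, a coactivator of mitochondrial genes in muscle and brown fat, did not exceed 0.165 FPKM.

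The other lists are given by the number of their genes past 2-fold, to be set beside 11.1% of all entries between the mice, 5.53% in AOC3-LN against AOC3 and 8.11% in AOC11-LN against AOC11. The counts were not tested against these shares. Of 37 further assembly genes of the complexes, none passed 2-fold between the mice (median -0.05), none did in AOC3-LN against AOC3 (0.04) and 2 did in AOC11-LN against AOC11 (0.10). Those were Pet100, a complex IV assembly factor, at 13.5 FPKM in AOC11 and 36.2 FPKM in AOC11-LN (1.38), and Uqcc3, a complex III assembly factor, at 11.9 and 27.6 FPKM (1.15). The 32 genes of the mitochondrial ribosome and its translation factors held 0 past 2-fold in any comparison, with medians of 0.17, 0.07 and 0.06. Of 17 genes of the tricarboxylic acid cycle and pyruvate entry, 1 passed between the mice, Idh2, at 46.96 and 38.7 FPKM in the AOC3 lines against 16.6 and 28.0 FPKM in the AOC11 lines (1.02). Pdha1, a subunit of pyruvate dehydrogenase, fell just short on the other side, at 39.5 and 39.7 FPKM against 101.6 and 63.4 FPKM (-0.97). Of 12 genes that answer to low oxygen, 1 passed between the mice, Egln3, an oxygen-sensing hydroxylase, at 3.73 and 3.45 FPKM against 0.0477 and 0.356 FPKM (2.02). In AOC11-LN against AOC11 1 passed too, Car9, a carbonic anhydrase, at 12.7 and 2.69 FPKM (-2.01).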

How the data were processed

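RNA of each line was sequenced as a stranded, paired-end mRNA library. Per the paper's methods, the authors trimmed reads with Trim Galore, mapped them to mm10 with TopHat2 and estimated FPKM with Cufflinks on GENCODE M21 at default parameters. The deposited FPKM values are linear and unnormalized between lines, although the methods name a log2 transformation and quantile normalization. Whether counting used strand was not given in the sources used here, and 30 of the 87 members overlap another gene.

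From the deposited FPKM, log2(FPKM + 1) values were quantile normalized over 34721 entries, and 14165 entries, those reaching 1 FPKM in any line, were compared. A member was called past 2-fold. The AOC3 lines and the AOC11 lines were also compared with limma 3.58.1 (R 4.3.3, trended empirical Bayes, Benjamini-Hochberg adjustment over all entries), tested on simulated data. Its p-values measure the spread between 2 related lines of a mouse. Depth was estimated from 9528 genes with 1 transcript over 800 bases. Tables were handled with Python 3.11.15.

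The members and gene lists were chosen with earlier results of these data known. Named were members past 2-fold, the highest and lowest of each complex, the 3 largest differences in each direction, isoform pairs, Sdha to Sdhd, Cyc1, Cycs, and others chosen after their values were seen. Alternatives changed the pseudocount, scaling, filter, fold, genes and lines. Promoters came from RefSeq.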

Additional observations from a re-analysis of the deposited data

Results flagged for a closer look

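Some members moved in opposite directions in the 2 mice when the lymph node line was set against the primary line, each by more than 0.25 on the log2 scale. Each value rests on 1 library a side, and the difference between the mice was not tested. Ndufaf3 had log2 differences of 1.22 in the AOC11 mouse and -0.79 in the AOC3 mouse. Cox5b had 0.61 and -0.28, Cox7a2 had 0.44 and -0.34, Ndufc1 had 0.35 and -0.28, and Sdhc had 0.35 and -0.35.

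Others had opposite differences between AOC3 and AOC11 at the primary and lymph node sites, by the same limit, and again the difference between the sites was not tested. Ndufaf3 had 0.41 between the primary lines and -1.59 between the lymph node lines, and Cox5b had 0.51 and -0.38. Cox7a2 had 0.28 and -0.49, Atp5g2 had 0.25 and -0.32, and Atp5l had 0.31 and -0.27. Ndufaf3, Cox5b and Cox7a2 were in both groups, which rest on the same 4 libraries.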

How the results depend on the processing

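With 1 library a line, the lymph node comparisons have no replicate, and no line could be left out of them. At 1.5-fold the members called numbered 5 between the mice, 1 in AOC3-LN and 5 in AOC11-LN. With only entries of 50 FPKM or more, chosen after seeing the data, they numbered 0 between the mice and 0 in AOC11-LN. Leaving out each line gave 1 to 2 calls between the mice and medians of -0.0888 (without the AOC11 primary line) to 0.10. Without that line Ndufaf3 passed 2-fold (-1.19), and without AOC11-LN Ndufaf1 did (1.02) while Ndufaf3 was at 0.02. Limma called 1 member, Ndufb2, in 4 settings: rescaling to a common sum (adjusted p 0.0444), at least 5 FPKM (0.0410), protein-coding genes only (0.0175) and transcripts of at least 400 bases (0.0191). In the others Ndufb2 had adjusted p-values of 0.0546 to 0.419, with site as a block 0.0749, and leaving out each line gave 0 calls. Site was the only pairing fitted, since the labels number no replicates, and with this block limma called 31 entries and 0 members, beside 29 and 0 without it. The AOC11-LN median ran from 0.11 to 0.22 and the AOC3-LN median from -0.04 to 0.08 over the scalings and filters. Of 168 alternatives for 18 named differences, 153 stayed close, 13 moved further, none turned a called direction and 2 newly passed 2-fold.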
